A study of Mus musculus with 24 samples.

Results

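The ON bipolar cell mGluR6 cascade was followed through 10 genes, Grm6, Trpm1, Nyx, Gpr179, Lrit3, Rgs7, Rgs11, Gng13, Pcp2 and Prkca, taken by symbol from the 56748 genes of a bulk RNA-sequencing count table. The table covers 24 libraries from 12 mice, with the neural retina and the remaining eye cup (RPE, choroid and sclera) of each mouse sequenced separately. The 4 groups of 3 mice were heterozygous PRDM13-OE mice given dox, untreated PRDM13-OE mice, wildtype littermates given dox and untreated wildtype littermates. Dox (2 mg/mL, with 10% sucrose) was taken in drinking water for 72 hours from P28, and untreated mice received none. PRDM13-OE mice carry a dox-inducible human PRDM13 in the Rosa26 locus. The EF-1α promoter drives the reverse transactivator that switches the transgene on, so induction was not limited to a retinal cell type. All mice were on a C57BL/6J background.

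In darkness, photoreceptors release glutamate onto ON bipolar cells, where the receptor mGluR6 activates the G protein Gαo and holds the cation channel TRPM1 closed. Light lowers glutamate release, RGS proteins then switch Gαo off, TRPM1 opens, and the cell depolarizes, which gives the b-wave of the electroretinogram. Leucine-rich repeat proteins and GPR179 gather these parts at the dendritic tips, and loss of GRM6, TRPM1, NYX, GPR179 or LRIT3 is known to cause complete congenital stationary night blindness. In bulk tissue, fewer ON bipolar cells, less RNA per cell and a change in other cells that transcribe the same gene cannot be told apart.

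Of the 10 genes, Grm6, Trpm1, Lrit3 and Gng13 had all 3 PRDM13-OE dox retinas below all 9 other retinas, a pattern shared by 6.95% of the 14853 genes with a mean of at least 1 CPM (counts relative to library size, scaled by the trimmed mean of M values over the 12 libraries of a tissue). No member had the 3 retinas above the other 9, against 5.82% of those genes. For Grm6, Lrit3 and Gng13, the 250 bases before the start of the Ensembl canonical transcript (GRCm39, GENCODE vM39) hold no annotated exon and are given here in transcript direction because these genes, with Trpm1, carry the result. The capitals mark TAATC on either strand (reverse complement GATTA), the core that retinal homeodomain factors such as CRX and OTX2 bind.

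Grm6, chr11:50741262-50741511, plus strand: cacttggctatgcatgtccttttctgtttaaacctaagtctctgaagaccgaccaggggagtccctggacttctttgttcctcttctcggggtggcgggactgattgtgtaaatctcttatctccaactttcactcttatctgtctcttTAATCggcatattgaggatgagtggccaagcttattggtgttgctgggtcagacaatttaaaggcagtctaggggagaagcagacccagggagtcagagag

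Lrit3, chr3:129597680-129597929, minus strand: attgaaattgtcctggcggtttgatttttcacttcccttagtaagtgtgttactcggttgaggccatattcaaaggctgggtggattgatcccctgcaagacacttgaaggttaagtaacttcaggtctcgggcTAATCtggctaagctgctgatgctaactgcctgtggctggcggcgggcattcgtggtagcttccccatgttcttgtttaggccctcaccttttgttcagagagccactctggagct

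Gng13, chr17:25935895-25936144, plus strand: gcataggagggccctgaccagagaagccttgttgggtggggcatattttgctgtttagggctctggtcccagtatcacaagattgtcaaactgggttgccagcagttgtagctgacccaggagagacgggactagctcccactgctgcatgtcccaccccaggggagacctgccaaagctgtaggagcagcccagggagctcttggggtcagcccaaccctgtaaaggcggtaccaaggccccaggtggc

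TAATC occurred in the windows of Grm6 at bases -101 to -97, Lrit3 at -116 to -112, Nyx at -31 to -27 and, as GATTA, Trpm1 at -138 to -134, counted from the transcript start. That is 4 of 10 members, beside 20.4% of 21770 protein-coding windows of the same length. The longer TAATCC, which contains TAATC, was in 0 members and 7.00% of all windows. CAGCTG, which reads the same on both strands, was in 0 members and 11.9% of windows, and TAATTA, likewise its own reverse complement, was in 0 members and 5.18%. These matches describe letters in a window only.

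Depth ran from 15825059 to 24908314 counts per library. A list of 12 rod photoreceptor markers summed to 53144 to 78357 CPM in the 12 retinas and 3513 to 47620 CPM in the 12 eye cups, so every eye cup held rod transcripts. Rpe65, an RPE isomerase, was at 4.53 to 27.7 CPM in retinas and 405 to 3137 CPM in eye cups. The 9 lens crystallin genes summed to 30.6 to 49.9 CPM in PRDM13-OE dox retinas and 145 to 12157 CPM in wildtype dox retinas, where replicates 1 and 2 stood highest. The human transgene was not counted separately here, and the mouse Prdm13 row held 53.0 to 60.3 CPM in PRDM13-OE dox retinas and 47.1 to 50.5 CPM in wildtype dox retinas. Libraries of a group came from different mice, and none were copies of each other.

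To place the 10 genes on a scale that allows genes to be compared, deposited FPKM values (fragments relative to gene length and library size) were used for the 3 untreated wildtype retinas. Gng13, the Gγ subunit that pairs with Gβ3, was highest at 38.4 ± 3.13 FPKM (SD, n = 3), followed by Prkca, the protein kinase C marking rod bipolar cells, at 36.7 ± 2.63 FPKM. Grm6 followed at 24.7 ± 1.12 FPKM, then Pcp2 at 21.5 ± 3.40, Lrit3 at 20.9 ± 3.27, Trpm1 at 17.3 ± 1.18 and Gpr179 at 15.4 ± 1.18 FPKM. Rgs11 at 8.11 ± 2.19, Rgs7 at 7.22 ± 0.158 and Nyx at 6.77 ± 0.404 FPKM were lowest. Between neighbours in this order, the 3 values of each did not overlap only between Prkca and Grm6 and between Gpr179 and Rgs11. Genes farther apart in the order could still separate, as Grm6 (23.8 to 26.0 FPKM) did from Lrit3 (17.1 to 22.9 FPKM).

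The first comparison asked how the cascade differed between PRDM13-OE and wildtype retinas when both had received dox. Of 20560 genes tested, 12.5% passed an adjusted p of 0.05 (edgeR quasi-likelihood test), 7.51% lower and 5.01% higher in PRDM13-OE dox. Of the 10 members, 6 were lower (Grm6, Trpm1, Nyx, Lrit3, Gng13 and Pcp2), 0 were higher, and 4 did not pass. DESeq2, which called 12.1% of all genes, also called 6. No member passed a log2 fold change of 1 as well, which 2.41% of genes did. The median log2 fold change of the 10 was -0.36, and that of all genes tested was 0.01. In 8 of 10 members the 3 PRDM13-OE dox values lay below all 3 wildtype dox values, as in 15.6% of all genes. The plot of retinal levels gives every library.

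**Figure D1:**
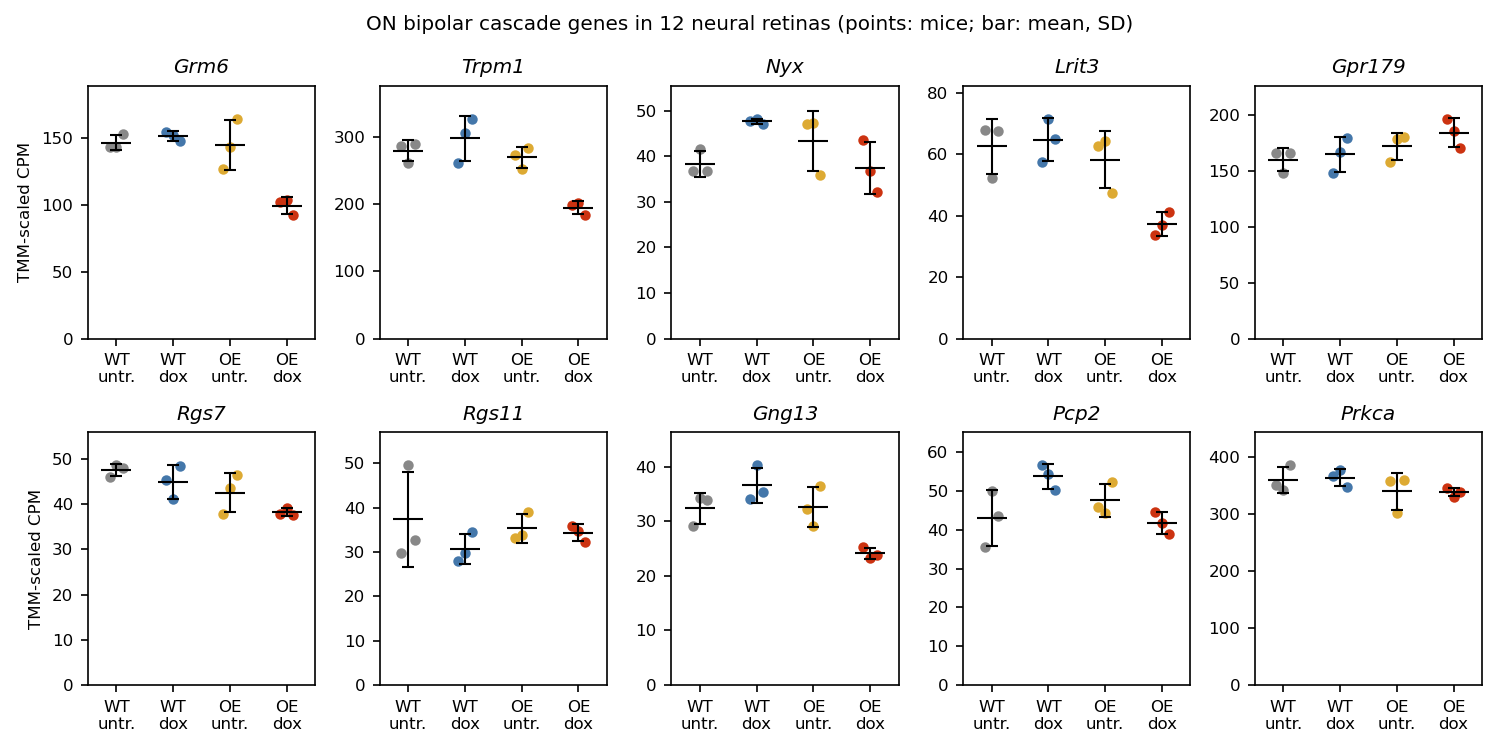
Levels of the 10 genes in 12 neural retinas, in CPM scaled by the trimmed mean of M values, from 0 on a linear axis; WT is wildtype, OE is PRDM13-OE and untr. is untreated, points are mice, and bars give the mean and SD of 3. Grm6, Trpm1, Lrit3 and Gng13 in the PRDM13-OE dox group lie below every other retina, and Gpr179, Rgs11 and Prkca overlap the untreated groups.

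Grm6 (ENSMUSG00000000617, chr11:50741512-50757035 in GRCm39) encodes mGluR6, the receptor that starts the cascade. Its level was 102, 104 and 91.8 CPM in the PRDM13-OE dox retinas and 154, 152 and 147 CPM in the wildtype dox retinas. Untreated PRDM13-OE retinas held 126, 143 and 164 CPM, and untreated wildtype retinas 143, 143 and 153 CPM. The PRDM13-OE dox group stood apart from all 3 others, which overlapped. Set against wildtype dox, Grm6 differed by -0.61 ± 0.06 on the log2 scale (SE; edgeR, adjusted p = 4.33e-05), a change of -34.7%.

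Trpm1 (ENSMUSG00000030523, chr7:63803583-63919523) encodes the channel at the end of the cascade, which melanocytes and other pigment cells also transcribe. The 3 PRDM13-OE dox retinas held 198, 202 and 183 CPM and the 3 wildtype dox retinas 261, 306 and 326 CPM. In untreated retinas, Trpm1 was at 272, 252 and 283 CPM in PRDM13-OE and 286, 261 and 289 CPM in wildtype. Channel and receptor thus fell by nearly the same proportion, with a log2 fold change for Trpm1 of -0.62 ± 0.08 (edgeR adjusted p = 0.000248). The count ratio of Trpm1 to Grm6 stayed between 1.69 and 2.21 in all 12 retinas.

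Lrit3 (ENSMUSG00000093865, chr3:129581530-129597679), a leucine-rich repeat protein needed to place nyctalopin and TRPM1 at the dendritic tip, had the largest fall of the 10. It was at 33.5, 37.0 and 41.2 CPM in PRDM13-OE dox retinas and 57.4, 71.4 and 65.0 CPM in wildtype dox retinas. Untreated retinas held 62.5, 64.4 and 47.5 CPM in PRDM13-OE and 68.0, 52.1 and 67.4 CPM in wildtype. The log2 fold change against wildtype dox was -0.80 ± 0.09 (edgeR adjusted p = 0.000122). Which retinal cells this Lrit3 RNA came from was not tested. Nyx (ENSMUSG00000051228, chrX:13332349-13355552) encodes nyctalopin, the partner of LRIT3. Nyx was at 43.5, 36.8 and 32.1 CPM in PRDM13-OE dox retinas and a narrow 47.7, 48.2 and 47.0 CPM in wildtype dox retinas. Untreated wildtype retinas held only 36.8, 41.6 and 36.7 CPM, within the range of the PRDM13-OE dox retinas. Untreated PRDM13-OE retinas held 47.1, 47.4 and 35.8 CPM of Nyx, with 2 of 3 above all PRDM13-OE dox values. Its log2 fold change was -0.35 ± 0.09 (edgeR adjusted p = 0.0304), a call made in 8 of 16 alternative settings.

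Gpr179 (ENSMUSG00000070337, chr11:97222935-97242903), the orphan receptor that anchors RGS7 and RGS11 beside mGluR6, did not share the fall. Its level was 197, 186 and 170.3 CPM in PRDM13-OE dox retinas and 149, 167 and 179.7 CPM in wildtype dox retinas, which overlap. The log2 fold change was 0.15 ± 0.08 (edgeR adjusted p = 0.219, unadjusted p = 0.0643). Its normal 95% interval of 0.01 to 0.30, from its own error, is narrower than the test implies and is not read as a rise. Because both genes are read in the same library, the ratio of counts does not depend on scaling. The ratio of Grm6 to Gpr179 was 0.517 to 0.558 in the 3 PRDM13-OE dox retinas and 0.800 to 1.04 in the other 9. For Trpm1 to Gpr179 the ranges were 1.01 to 1.09 and 1.41 to 1.83, for Lrit3 0.171 to 0.242 and 0.264 to 0.428, and for Gng13 0.126 to 0.140 and 0.164 to 0.241. The 4 genes were taken for these ratios because their CPM lay below the other 9 retinas, and Gpr179 had the most positive log2 fold change of the 10, so the ratios describe that choice and are no separate support.

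**Figure D2:**
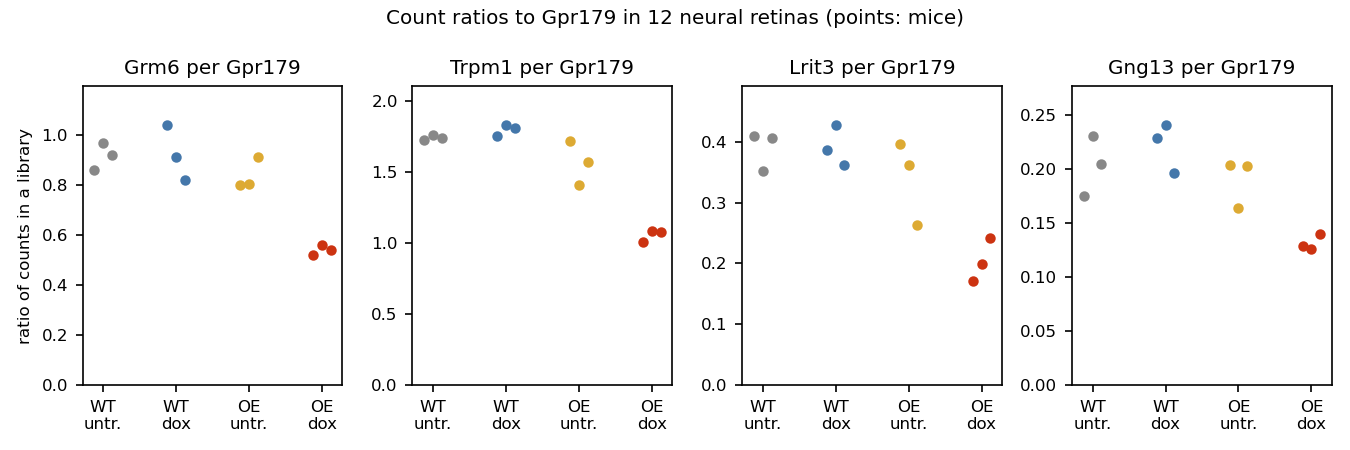
Counts of Grm6, Trpm1, Lrit3 and Gng13 divided by the counts of Gpr179 in the same retinal library, by group, on linear axes from 0; WT is wildtype, OE is PRDM13-OE, untr. is untreated and each point is a mouse. In each panel the 3 PRDM13-OE dox points lie below the other 9, at 0.517 to 0.558 for Grm6 against 0.800 to 1.04.

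Rgs7 and Rgs11, the GTPase-activating proteins that turn Gαo off and speed the light response, did not pass the test. Rgs7 (ENSMUSG00000026527, chr1:174886653-175320066) was at 37.8, 39.2 and 37.7 CPM in PRDM13-OE dox retinas and 45.3, 41.0 and 48.5 CPM in wildtype dox retinas. These groups did not overlap, and the log2 fold change of -0.24 ± 0.07 had an edgeR adjusted p of 0.0526. Rgs7 passed in 4 of 16 alternative settings. Rgs11 (ENSMUSG00000024186, chr17:26421925-26430298) was at 35.9, 34.8 and 32.2 CPM and 28.1, 29.7 and 34.5 CPM in the same groups, which overlap. Its log2 fold change of 0.15 ± 0.09 did not pass (edgeR adjusted p = 0.289), and its 95% interval was -0.02 to 0.32. Untreated wildtype replicate 2 held 49.5 CPM of Rgs11, the highest of all 12 retinas.

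Gng13 (ENSMUSG00000025739, chr17:25936145-25938380) was at 25.3, 23.3 and 23.8 CPM in PRDM13-OE dox retinas and 34.1, 40.2 and 35.4 CPM in wildtype dox retinas. In untreated retinas it was at 32.3, 29.1 and 36.5 CPM in PRDM13-OE and 29.1, 34.2 and 33.9 CPM in wildtype. Its log2 fold change against wildtype dox was -0.60 ± 0.08 (edgeR adjusted p = 0.000375), close to those of Grm6 and Trpm1. Pcp2 (ENSMUSG00000004630, chr8:3673371-3675545), a GoLoco protein that binds Gαo and is used to mark rod bipolar cells, was at 44.6, 41.7 and 39.0 CPM in PRDM13-OE dox retinas. Wildtype dox retinas held 56.6, 54.6 and 50.2 CPM of Pcp2 and untreated wildtype retinas 35.5, 50.0 and 43.6 CPM. Untreated PRDM13-OE retinas held 46.0, 44.3 and 52.4 CPM of Pcp2, of which the lowest fell within the PRDM13-OE dox range. The log2 fold change against wildtype dox was -0.37 ± 0.07 (edgeR adjusted p = 0.00496), and, as for Nyx, the PRDM13-OE dox and untreated wildtype values overlapped.

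Prkca (ENSMUSG00000050965, chr11:107824213-108234754) is the usual marker of rod bipolar cells. It was at 345, 331 and 339 CPM in PRDM13-OE dox retinas and 366, 377 and 347 CPM in wildtype dox retinas, which did not overlap by a small margin. Its log2 fold change of -0.11 ± 0.05 did not pass (edgeR adjusted p = 0.166), and its 95% interval of -0.20 to -0.02 lies outside the falls of Grm6, Trpm1, Lrit3 and Gng13, whose intervals ran from -0.97 to -0.45. In counts, Grm6 per Prkca was 0.270 to 0.313 in PRDM13-OE dox retinas and 0.353 to 0.473 in the other 9. As with the Gpr179 ratios, Grm6, Trpm1, Lrit3 and Gng13 were taken for their low CPM. The contrasts with Prkca describe that choice and are no separate support.

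Exons of 6 members share bases with an annotated gene on the opposite strand (Grm6, Trpm1, Rgs11, Gng13, Pcp2 and Prkca), and whether counting used strand is not stated. Chtf18, which overlaps Gng13, was at a mean of 5.35 CPM in PRDM13-OE dox and 5.54 CPM in wildtype dox retinas (log2 fold change -0.06 ± 0.14). Pet100, which overlaps Pcp2, was at 3.41 and 3.45 CPM (log2 fold change -0.02 ± 0.21). Both are well below the levels of the members they overlap. Arhgdig, which overlaps Rgs11, was at 9.55 and 10.5 CPM (log2 fold change -0.15 ± 0.12), beside 34.3 and 30.8 CPM for Rgs11. Gm12660, which overlaps Grm6, was at 0.774 and 0.857 CPM, and Apoh, which overlaps Prkca, at 0.163 and 0.211 CPM. Gm44722, which overlaps Trpm1, and Gm72152 and Gm72160, which overlap Prkca, had no test here.

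Cell type markers moved in the same comparison. Of 12 rod markers 9 passed lower and 0 higher, with a median log2 fold change of -0.43, and their sum was 53144 to 60284 CPM in PRDM13-OE dox and 72293 to 74291 CPM in wildtype dox retinas. Of 8 cone markers 7 were lower and 1 higher, with a median of -1.21. Amacrine (2 of 8 lower, median -0.12) and ganglion cell markers (2 of 8 lower, median -0.16) moved less. The 9 lens crystallins and 5 blood markers were all lower. The blood markers summed to 0.706 to 1.19 CPM in PRDM13-OE dox and 31.0 to 77.9 CPM in wildtype dox retinas. Untreated retinas held 28.4 to 64.5 CPM in PRDM13-OE and 21.6 to 72.8 CPM in wildtype. In eye cups the blood sum was 12.1 to 14.7 CPM in PRDM13-OE dox and 236 to 568 CPM in wildtype dox. The 3 endothelial markers, of which Kdr and Cdh5 passed lower, summed to 109 to 131 CPM in PRDM13-OE dox, 265 to 277 CPM in wildtype dox and 215 to 274 CPM in untreated retinas of both genotypes, and Kdr made up most of that sum. The 3 horizontal cell markers, of which Lhx1 passed lower, summed to 16.6 to 20.7 CPM in PRDM13-OE dox and 23.1 to 23.9 CPM in wildtype dox retinas. Of 6 Muller glia markers 3 were lower and 2 higher, 5 of 9 pigment cell and 2 of 7 RPE markers were lower, and 0 of 4 fibroblast and 0 of 3 tested skeletal muscle markers passed.

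Per 1000 counts of the 12 rod markers, Grm6 was at 1.52 to 1.91 counts in PRDM13-OE dox, 2.04 to 2.09 in wildtype dox and 1.90 to 2.01 in untreated wildtype retinas. On that scale Gpr179 was at 2.82 to 3.70, 2.01 to 2.49 and 1.97 to 2.25, and Prkca at 5.63 to 6.50, 4.81 to 5.08 and 4.56 to 5.08. Untreated PRDM13-OE retinas held 1.61 to 2.28 counts of Grm6, 2.01 to 2.50 of Gpr179 and 4.19 to 5.00 of Prkca. Against the rod sum, Gpr179 and Prkca thus stood higher in the PRDM13-OE dox retinas than in all 9 others, while Grm6 lay below the wildtype dox retinas and overlapped the untreated ones. Lrit3 was at 0.631 to 0.683 counts in PRDM13-OE dox and 0.778 to 0.961 in wildtype dox retinas, which did not overlap, and its untreated PRDM13-OE range of 0.660 to 0.894 overlapped. Trpm1 was at 3.04 to 3.73 counts in PRDM13-OE dox and 3.53 to 4.51 in wildtype dox retinas, and Gng13 at 0.395 to 0.476 and 0.461 to 0.541, so both overlapped. The mean of Gng13 on this scale was 0.433 in PRDM13-OE dox, 0.441 in untreated PRDM13-OE and 0.432 in untreated wildtype retinas. Of the 4 genes whose CPM stood below every other retina, none did so per rod marker count. The part of these markers in the members' differences was not tested, except that the lens crystallin sum was entered as a covariate over the 12 retinas. Then Grm6 (log2 fold change -0.54, edgeR adjusted p = 0.0360, in a fit that called 2.01% of genes), Trpm1 (-0.74, 0.00195) and Lrit3 (-0.85, 0.0347) remained lower, and Gng13 (-0.57, 0.0850), Nyx (-0.40, 0.357) and Pcp2 (-0.30, 0.493) did not pass at log2 fold changes near those without the covariate.

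The second comparison set dox against no dox within PRDM13-OE retinas, and shares the PRDM13-OE dox libraries with the first. Of 20603 genes 5.00% passed, 2.96% lower and 2.04% higher, and of the 10 members 4 were lower and 0 higher. Trpm1 changed by -0.47 ± 0.06 on the log2 scale (edgeR adjusted p = 0.000534) and Grm6 by -0.54 ± 0.09 (0.00225). Lrit3 changed by -0.64 ± 0.11 (edgeR adjusted p = 0.00390) and Gng13 by -0.43 ± 0.09 (0.0153). The other 6 did not pass, with log2 fold changes from -0.22 (Nyx) and -0.19 (Pcp2) through -0.16 (Rgs7), -0.04 (Rgs11) and -0.01 (Prkca) to 0.10 (Gpr179). In these 4 the groups did not overlap, with dox below no dox, as in 10.0% of all genes, and they are the genes whose PRDM13-OE dox retinas lay below every other retina. For Gng13, leaving out PRDM13-OE dox replicate 2 or 3 ended the call at log2 fold changes of -0.41 and -0.42.

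Dox without the transgene was examined in wildtype retinas. Sucrose is recorded only for the dox mice. Effects of dox and of sucrose therefore cannot be told apart here or in the other comparisons with untreated mice. Of 20631 genes 0.00485% passed, and 0 members did with either edgeR or DESeq2 (0.451% of genes). At an unadjusted p under 0.05, reached by 9.32% of genes, stood 2 members, Nyx at 0.31 ± 0.07 and Pcp2 at 0.32 ± 0.11 on the log2 scale, and in both the 3 dox values lay above the 3 untreated values, as in 6.76% of genes. Gng13 was at 0.17 ± 0.09 (edgeR adjusted p = 0.573). Grm6 and Trpm1 had 95% intervals of -0.06 to 0.16 and -0.06 to 0.25, whose lower ends lie above the falls seen with PRDM13-OE dox. For the transgene without dox, in which leak of the inducible system would appear, 0.00484% of 20668 genes passed between untreated PRDM13-OE and untreated wildtype retinas, with 0 members by edgeR, by DESeq2 (0.0194% of genes) or at an unadjusted p under 0.05 (3.76% of genes). The 10 log2 fold changes had a median of -0.03, and the interval of Grm6 was -0.19 to 0.16.

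Whether the response to dox itself differed by genotype was tested as an interaction over the 12 retinas. Of 22538 genes 3.03% passed, 1.83% with a more negative and 1.19% with a more positive change in PRDM13-OE, and 4 members passed in that direction. The interaction was -0.59 ± 0.11 for Grm6 (log2 scale, edgeR adjusted p = 0.00469), -0.56 ± 0.11 for Trpm1 (0.00499), -0.61 ± 0.13 for Gng13 (0.0157) and -0.69 ± 0.17 for Lrit3 (0.0355). Nyx at -0.53 ± 0.15 (edgeR adjusted p = 0.0850) and Pcp2 at -0.51 ± 0.15 (0.0730) did not pass, and passed with DESeq2, which called 6 members and 4.12% of all genes. Over 19 alternative settings the interaction passed in 19 for Grm6 and Trpm1, 18 for Gng13 and 10 for Lrit3. For Lrit3 the log2 value stayed between -0.81 and -0.58, and its largest adjusted p was 0.133, in the robust fit. Without wildtype dox replicate 2, when 2.39% of genes passed, Grm6 and Trpm1 remained, and Lrit3 (-0.61, adjusted p = 0.0939) and Gng13 (-0.53, adjusted p = 0.0501) did not pass. With the replicate number as a block, Lrit3 at -0.69 no longer passed (adjusted p = 0.0612) and Nyx at -0.53 passed (0.0442), with the log2 values of both as without the block to 2 decimals. The plot of the 4 group comparisons sets these differences side by side.

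**Figure D3:**
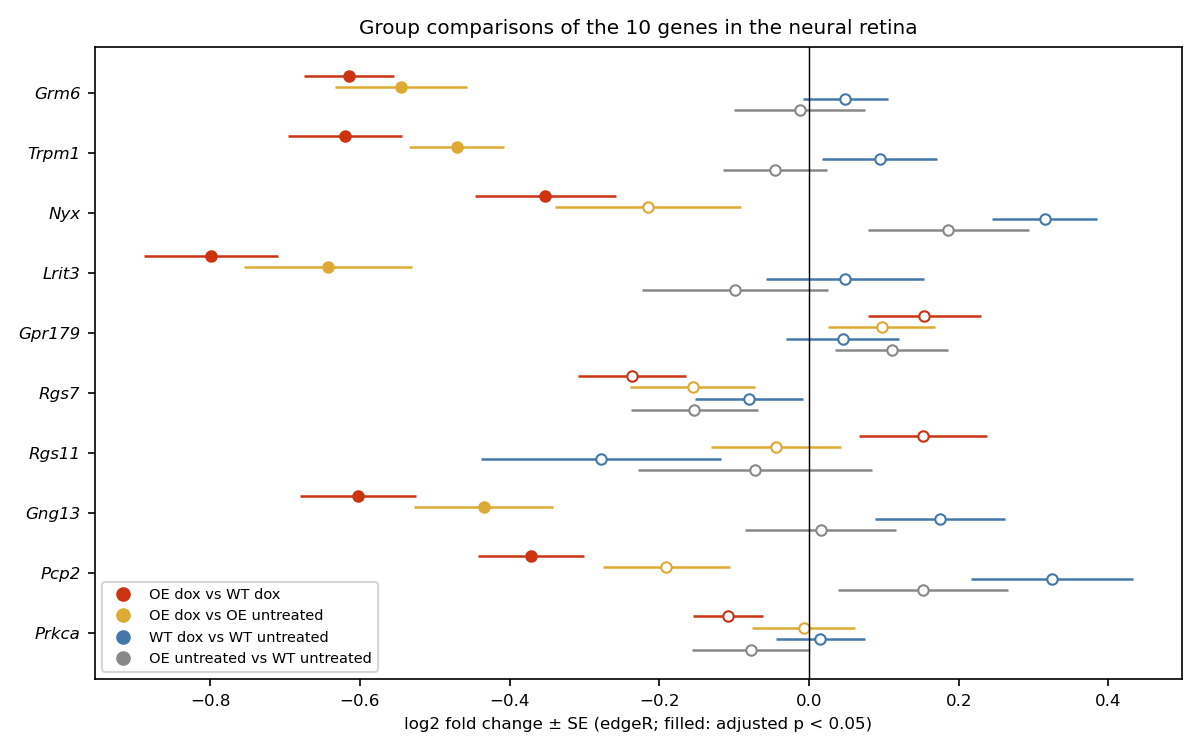
log2 fold change with its SE for each of the 10 genes in 4 comparisons of neural retinas (3 libraries a group, edgeR); OE is PRDM13-OE, WT is wildtype, and filled points passed an adjusted p of 0.05. Filled points lie only in the 2 comparisons that include PRDM13-OE dox, between -0.35 and -0.80 against wildtype dox, and Gpr179, Rgs7, Rgs11 and Prkca have open points throughout.

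A list of 7 partner genes did not move as 1 block. It includes Lrit1 and Lrit2 as relatives of Lrit3, not as known parts of the cascade. Of the 7, 3 were lower and 1 higher in PRDM13-OE dox against wildtype dox retinas. Gnb3, the Gβ subunit that pairs with Gγ13 and that cones also use, was at a mean of 74.3 ± 1.66 CPM (SD, n = 3) and 261 ± 8.55 CPM, a log2 fold change of -1.82 ± 0.05 (edgeR adjusted p = 2.96e-09). Lrit2 (-1.17 ± 0.06, adjusted p = 1.95e-07) and Lrit1 (-0.57 ± 0.06, adjusted p = 3.90e-05), leucine-rich repeat relatives of Lrit3, also fell by edgeR. Gnb5, the Gβ5 subunit that stabilizes RGS7 and RGS11, rose by 0.31 ± 0.04 (edgeR adjusted p = 0.000799). Gnao1, which encodes Gαo itself, was at 516 ± 3.17 and 525 ± 18.0 CPM (log2 fold change -0.03), Rgs9bp was at 0.14 and Rgs7bp at -0.15, and none of the 3 passed. Gnb3 and Gng13, which form the βγ pair of this cascade, were thus both lower, and no difference was detected in the α subunit gene.

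On the photoreceptor side of the synapse, 4 of 7 genes were lower and 1 higher. Elfn1, the rod adhesion protein that binds mGluR6 across the cleft, was at 58.5 ± 1.48 and 122 ± 5.84 CPM, a log2 fold change of -1.06 ± 0.06 (edgeR adjusted p = 4.74e-07). Egflam, which encodes pikachurin, a ligand of dystroglycan and GPR179, was at -0.73 ± 0.05 (edgeR adjusted p = 3.46e-06). Elfn2 at -0.23 ± 0.06 and Dag1, which encodes dystroglycan, at -0.20 ± 0.06 passed with smaller changes (edgeR adjusted p = 0.0215 and 0.0388). Cacna1f, the pore of the presynaptic calcium channel, was higher at 0.27 ± 0.07 (edgeR adjusted p = 0.0251), and its partners Cacna2d4 (0.03) and Cacnb2 (0.08) did not pass.

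Of 8 transcription factors of bipolar cells, 5 were lower and 1 higher. Lhx4 (-0.61 ± 0.07), Sebox (-0.59 ± 0.09) and Bhlhe23 (-0.50 ± 0.08), the last a factor of rod bipolar cells, were lower, as were Prdm8 (-0.43 ± 0.07) and Neurod4 (-0.37 ± 0.07). Otx2 was higher at 0.19 ± 0.05 (edgeR adjusted p = 0.0281), and Isl1 (-0.25, adjusted p = 0.195) did not pass. Of 7 other bipolar genes, Cabp5, a calcium-binding protein, rose by 0.86 ± 0.06 on the log2 scale (edgeR adjusted p = 1.95e-06), Car8 (-0.42) and Gabrr1 (-0.39) fell, and Scgn, Tpbg, Gabrr2 and Cabp2 did not pass. Of 5 genes of OFF bipolar cells, which lack this cascade, Tacr3 was lower (-0.38, edgeR adjusted p = 0.00572) and the other 4 did not pass, with a list median of -0.11. The plot of partner lists shows that lower and higher genes occur in 4 of these 5 lists.

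**Figure D4:**
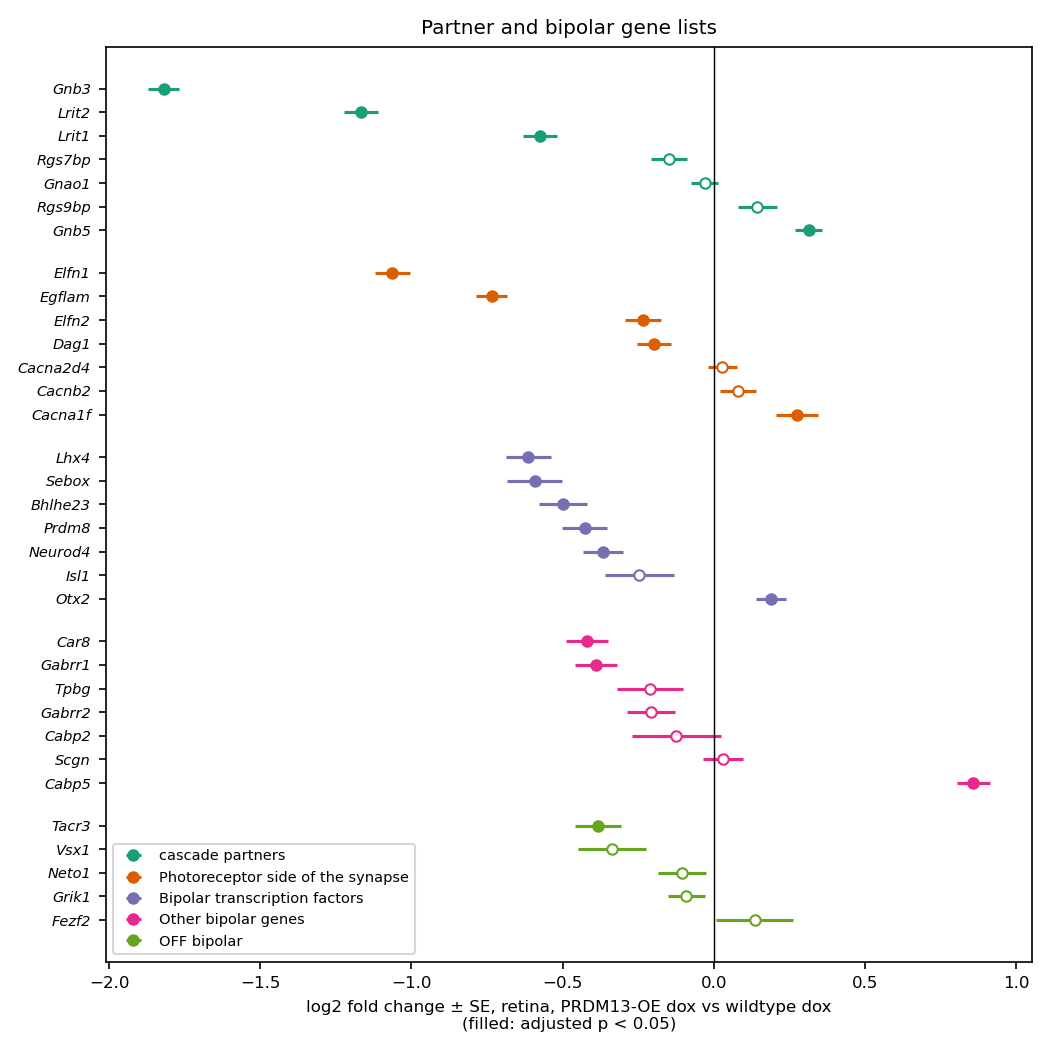
log2 fold change with its SE, PRDM13-OE dox against wildtype dox retinas, for genes from 5 lists of cascade partners, photoreceptor synapse genes and bipolar genes, with colour by list and filled points for an adjusted p under 0.05 (edgeR, 3 libraries a group). Gnb3 is lowest at -1.82 and Cabp5 highest at 0.86.

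Over the 12 retinas, the genes whose log2 level most resembled the mean standardized profile of the 10 members, among 14843 screened, were A730036I17Rik (Pearson r 0.94), Sox8 (0.93), Bhlhe23 (0.93), Paqr6 (0.93) and Fntb (0.92), all lowest in PRDM13-OE dox retinas. Within the members, Grm6 and Trpm1 had r = 0.90 over 12 retinas and 0.23 over the 9 without PRDM13-OE dox, and Trpm1 and Lrit3 had 0.86 and 0.40. Gng13 and Pcp2 had 0.73 and 0.77, the latter the highest of all member pairs over the 9 retinas. Those pairs reached down to -0.66, for Lrit3 and Rgs11. Grm6 and Gpr179 had -0.41 and 0.28. These values describe 12 libraries that share scaling and fall into groups.

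In untreated wildtype mice, 61.5% of 21979 genes differed between retina and eye cup, 29.0% higher and 32.5% lower in retina, and all 10 members differed. Of these 9 were higher in the retina, from a log2 fold change of 1.70 ± 0.42 for Rgs11 to 3.60 ± 0.49 for Nyx (edgeR adjusted p = 0.00999 and 0.000555). Grm6 was higher in the retina by 3.34 ± 0.57. Trpm1 alone was lower in the retina, at -0.99 ± 0.20 (edgeR adjusted p = 0.00374). It was at 286, 261 and 289 CPM in the 3 untreated wildtype retinas and 363, 445 and 604 CPM in their eye cups. These values are scaled separately in each tissue. Scaled together for this comparison, the means of Trpm1 were 248 CPM in retinas and 492 CPM in eye cups.

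The other 9 members and Trpm1 differed in how they varied over the eye cups. The count ratio of Trpm1 to Grm6 was 3.72 to 305 in the 12 eye cups, with a median of 16.4, above the 1.69 to 2.21 of all 12 retinas. Over the 12 eye cups, log2 levels of the other 9 members had Pearson r of 0.76 to 0.96 with the summed rod markers and -0.80 to -0.39 with the summed pigment cell markers. For Trpm1 these were -0.12 and 0.82. Divided by rod marker counts, the eye cup value of Trpm1 was 1.77 to 36.5 times that of the same mouse's retina (median 5.88), the highest of the 10 members in each eye cup, though close to others in PRDM13-OE dox eye cup 3, at 2.14 beside 1.92 for Gng13, and in wildtype dox eye cup 1, at 1.77 beside 1.33 for Rgs11. In contrast, the medians of Grm6 (0.694), Gpr179 (0.822), Prkca (1.01), Gng13 (1.04) and Pcp2 (1.08) were near 1 or lower. Rgs11 was the other member above 1 in all 12 mice, at 1.12 to 4.45 (median 1.54).

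**Figure D5:**
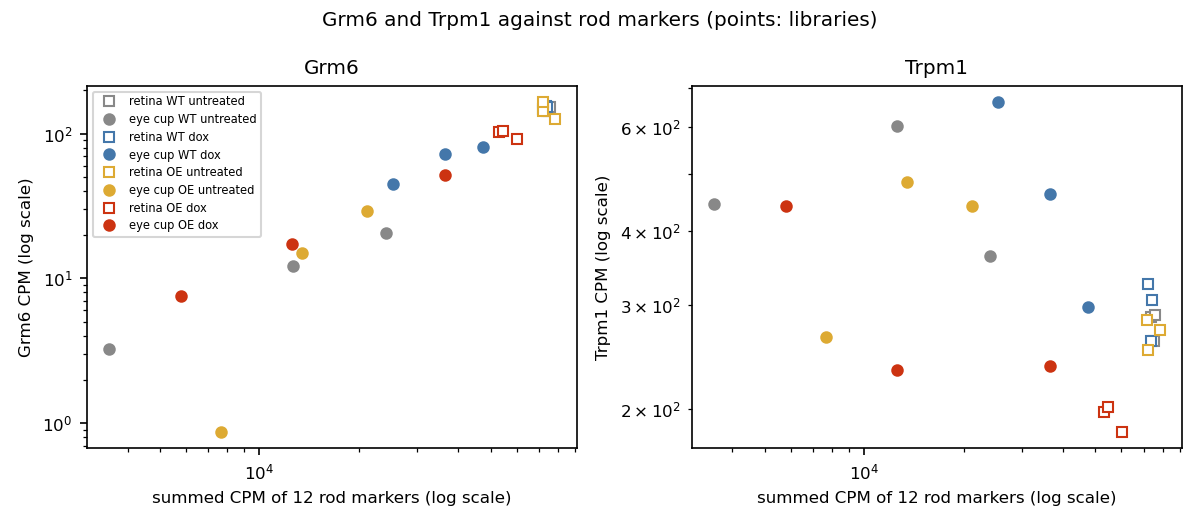
Grm6 and Trpm1 in CPM against the summed CPM of 12 rod markers in 12 eye cups (filled circles) and 12 retinas (open squares), both axes on log scales, with colour by group (WT wildtype, OE PRDM13-OE); CPM was scaled separately in each tissue. Grm6 in eye cups runs with the rod sum from 0.869 to 80.2 CPM, and Trpm1 stays between 234 and 661 CPM.

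The eye cup comparisons were read against this spread of neural retina transcripts. Between PRDM13-OE dox and wildtype dox eye cups 0.0184% of 21758 genes passed by edgeR, with 0 members. DESeq2 called 1 member (0.547% of genes) and 1 had an unadjusted p under 0.05 (8.24% of genes), in both tests Lrit3. All 10 log2 fold changes were below 0, with a median of -0.82, and the rod markers had a median of -0.81. Lrit3 was at 5.70, 4.52 and 11.3 CPM in PRDM13-OE dox and 20.6, 27.2 and 20.5 CPM in wildtype dox eye cups, which did not overlap, at -1.62 ± 0.37 (edgeR adjusted p = 0.597). Nyx, at 1.77, 2.55 and 12.4 against 18.8, 18.9 and 14.4 CPM, was the other member without overlap (-1.60 ± 0.69), as in 8.86% of genes. Grm6 was at -1.31 ± 0.64. Replicate 3 of PRDM13-OE dox held the most rod transcripts of its group, and without it 6 members passed, as did 10.4% of all genes. With the rod sum as a covariate over the 12 eye cups, the log2 fold change was -1.19 for Lrit3, -0.71 for Nyx and -0.15 for Grm6, and 5 of 10 members were below 0.

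Between wildtype dox and untreated wildtype eye cups 0.00% of 21799 genes passed by edgeR (29.9% had an unadjusted p under 0.05), with 0 members. For 8 members the 3 dox values lay above the 3 untreated values, as in 22.1% of genes, and the same 8 had an unadjusted p under 0.05. Grm6 was at 80.2, 71.9 and 44.7 CPM with dox and 20.5, 3.24 and 12.1 CPM without (log2 fold change 2.39 ± 0.60, edgeR adjusted p = 0.0726), and Nyx was at 2.67 ± 0.53, Gpr179 at 2.11 ± 0.48 and Lrit3 at 1.19 ± 0.49. All 12 rod markers were also above 0, with a median of 1.32 beside 1.92 for the 10 members, and all 7 RPE markers were below 0 with a median of -1.40. Trpm1 was at 299, 462 and 661 CPM with dox and 363, 445 and 604 CPM without, which overlap. DESeq2 called 6 members here and 18.5% of all genes. With the rod sum as a covariate over the 12 eye cups, the log2 fold change was 0.66 for Grm6 and 1.30 for Nyx, and the median of the 10 was 0.63. In the comparisons of PRDM13-OE dox with untreated PRDM13-OE eye cups (0.0139% of genes), of the untreated genotypes (0.00%) and of the interaction (0.00%), 0 members passed by edgeR or DESeq2 (0.250%, 0.0139% and 0.113% of genes). At an unadjusted p under 0.05 stood 0, 0 and 1 members, beside 4.14%, 1.87% and 6.40% of genes. The part of carried-over retina in these eye cup values was not tested beyond the covariate.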

How the data were processed

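Poly(A) RNA from the neural retina and eye cup of 12 mice was sequenced, and the authors deposited whole-number read counts and FPKM per gene in a single table for all 24 libraries. The submitters' processing notes name CASAVA, HISAT2 and GRCm39. The counting tool, annotation release and strand setting are not given in the sources used here. The deposited table also holds fold changes, p-values and normalized means of the authors' comparisons, which were not used.

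The deposited counts were tested with edgeR 4.0.16 (trimmed mean of M values, quasi-likelihood test, genes with at least 10 summed counts in the libraries compared, Benjamini-Hochberg over all genes tested), in fits of the groups compared only. The interaction used all 12 libraries of a tissue. DESeq2 1.42.0, R 4.3.3, Python 3.11.15 and pandas 2.3.3 were also used. The 95% intervals are normal intervals from the SE of a single gene, and are narrower than the quasi-likelihood test implies. CPM are for display, and log2(CPM + 1) was used for correlations and FPKM for levels between genes. The edgeR fit was tested on simulated counts. The 10 members, the gene lists and the tests were chosen with earlier results of these data known. All 10 members are named, with genes of the other lists that passed in the retina comparison under dox, all cascade partners, and the 5 most similar profiles. Results for some single genes of the marker lists are not reported here. Motifs and covariates were chosen after the data were seen. Depth was 15825059 to 24908314 counts a library, and p-values measure the spread between 3 mice a group.

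Mouse numbers pair the retina and eye cup of an animal by the labels (correlation of their deviations from group means 0.00 to 0.19 in 12 pairs). Between groups of a tissue the numbers are only shared names (24 pairs, -0.56 to 0.66). Alternatives were DESeq2, library size scaling, other count filters, a robust fit, all libraries in a single fit, a replicate block, leaving out each library, removal of crystallins and marker covariates.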

Additional observations from a re-analysis of the deposited data

Results flagged for a closer look

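For 4 genes, interactions of genotype and dox in the retina passed the test of the difference itself (edgeR quasi-likelihood test over 12 retinas, 3.03% of genes called), each meaning a more negative response to dox in PRDM13-OE than in wildtype mice. They were Lrit3 (-0.69 on the log2 scale), Gng13 (-0.61), Grm6 (-0.59) and Trpm1 (-0.56). Over 19 alternative settings Grm6 and Trpm1 passed in 19, Gng13 in 18 and Lrit3 in 10, with a largest adjusted p for Lrit3 of 0.133. In each, the 3 PRDM13-OE dox retinas lay below the other 9. Groups of 3 were too small for a test of single outlying libraries.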

How the results depend on the processing

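For PRDM13-OE dox against wildtype dox retinas, Grm6, Trpm1 and Lrit3 passed in 16 of 16 alternatives, Gng13 in 15, Pcp2 in 14, Nyx in 8 and Rgs7 in 4. The count of 6 (12.5% of all genes called) became 3 with the lens crystallin covariate (2.01%). That fit used all 12 retinas rather than the groups compared, so covariate and libraries changed together. Without wildtype dox replicates 1 and 2 together, 1 wildtype dox retina was left, assumed to vary like the other 9 retinas of that fit. There the median log2 fold change of the 10 members was -0.34. On leaving out a single library the count ran from 5 to 6. Leaving out a library gave 3 to 4 members for PRDM13-OE dox against untreated PRDM13-OE retinas (5.00% of genes in the main fit). It gave 2 to 5 for the retinal interaction (3.03% in the main fit, and 2 members without wildtype dox replicate 2, 2.39%). Between tissues it gave 9 to 10 (61.5% in the main fit). Shares of all genes in the other retinal and between-tissue fits without a library are not reported here. For PRDM13-OE dox against wildtype dox eye cups the count was 0 to 6 (6 without PRDM13-OE dox replicate 3, 10.4% of genes). For dox in wildtype eye cups it was 0 to 7 (7 without untreated replicate 1, 13.5% of genes, and 2 without dox replicate 3, 6.59%). For dox in wildtype retinas, no count filter gave 3 members (2.07% of genes). In eye cups, DESeq2 gave 1 member between genotypes under dox (0.547% of genes). For dox in wildtype eye cups, DESeq2 gave 6 (18.5% of genes), library size 4 (6.18%) and no count filter 5 (5.52%). In the retinal interaction Lrit3 no longer passed in 9 of 19 alternatives, of which 7 left out a library and the others were the robust fit and the block. Counts of 0 in the other comparisons stayed at 0 in all alternatives.

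Among the named values, sign changed only in ones that had not passed. Against wildtype dox, Rgs11 became -0.18 with the lens crystallin covariate and -0.011 without wildtype dox replicates 1 and 2, and Prkca became 0.022 with the covariate. Against untreated PRDM13-OE, Rgs11 became 0.018 and Prkca 0.055 with library size, Prkca 0.020 with the covariate, and on leaving out a library Rgs11 ran from -0.092 to 0.030 and Prkca from -0.086 to 0.031. The cause was not tested.

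The replicate block gave 6 members in the first comparison, 4 in the second, 4 in the interaction, 10 between tissues and 0 in all others. The main fits gave the same counts, beside 12.5%, 5.00%, 3.03% and 61.5% of all genes in the comparisons named. Shares of all genes under the block are not reported here. Beyond Lrit3 and Nyx in the interaction, as reported, the block moved no count. In eye cups Grm6 had 14 to 1436 counts a library, so its counting error differs widely between them.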
